A study of Rattus norvegicus with 46 samples.

Results

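Matrix metalloproteinases are zinc-dependent proteases, made as inactive proenzymes, that cut collagens, elastin, laminin and other parts of the extracellular matrix. In the brain they open the basal lamina of blood vessels early after a stroke and take part in clearing and rebuilding tissue later, and the tissue inhibitors of metalloproteinases bind and block the active enzymes. The genes described here are 5 of these proteases and 1 inhibitor: Mmp12 (ENSRNOG00000030187), Mmp2 (ENSRNOG00000016695), Mmp3 (ENSRNOG00000032626), Mmp9 (ENSRNOG00000017539), Mmp14 (ENSRNOG00000010947) and Timp1 (ENSRNOG00000010208). They were taken by Ensembl ID from 30452 listed genes, and were chosen with their levels over the 4 groups and their uneven spread over lesions known. The differences between lesion and intact brain, those between diets and the unevenness are therefore given as descriptions, and no test of them is read as a result. The files list IDs only and the reference gene table paired 0 of them with a symbol, so the symbols are those under which the 6 IDs were chosen.

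RNA was sequenced from 46 brain libraries of male Wistar rats that were 3 months old when their diets began. The standard diet, labelled ad libitum (AL), supplied 11% of its 3227 kcal/kg as fat, 24% as protein and 65% as carbohydrate. The ketogenic diet (KD) supplied 84%, 11% and 5% of its 6431 kcal/kg. Each diet ran for 2 months, and some rats then had the middle cerebral artery blocked (MCAO), which models ischemic stroke, with feeding continued for 2 weeks. The libraries form 4 groups: intact brain from rats fed the standard (Intact_AL, n = 8) or the ketogenic diet (Intact_KD, n = 8), and ischemic lesions 14 days after MCAO on the standard (MCAO_AL, n = 11) and the ketogenic diet (MCAO_KD, n = 19). Libraries are named by group and sample number. The labels do not say that each library came from a separate rat, so the p-values below measure the spread between libraries. The labels of these 46 libraries name no sham operation, so surgery and ischemia cannot be told apart.

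Library totals ran from 8883068 to 20420918 counts in intact brain and from 15290782 to 30601841 in lesions. Levels are in CPM, a library's counts scaled to a common total with trimmed mean of M-values (TMM) factors. The 20 most abundant genes took 14.2% to 31.2% of counts in intact libraries and 11.1% to 15.3% in lesions. Gene lengths on the build of the counts were not used here, so levels are compared between groups for each gene and not between genes. The labelled tissue was not checked against cell type markers, because the marker genes could not be matched to IDs. In bulk tissue, fewer cells of a type and less RNA per cell cannot be told apart.

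Mmp12, the macrophage metalloelastase, was close to undetected in intact brain and reached high levels in some lesions. On the standard diet, 5 of 8 intact libraries had 0 counts and the others had 3, 4 and 5 counts. On the ketogenic diet 8 of 8 intact libraries had 0 counts. Standard-diet lesions ran from 0.0529 to 102 CPM, with a median of 4.71 CPM. Ketogenic-diet lesions ran from 0 to 70.4 CPM, with a median of 3.37 CPM. Thus 24 of 30 lesions lay above every intact library, while the lowest lesions overlapped the intact range. The share of all genes with as many lesions above was not computed. The mean was 16.6 ± 30.04 CPM (SD, n = 11) in MCAO_AL against 0.0996 ± 0.140 CPM (SD, n = 8) in Intact_AL, a ratio of means of 167. Most genes differed between lesion and intact brain: 68.4% of the 15446 genes tested on the standard diet and 69.1% of the 15862 on the ketogenic diet passed the edgeR test at an adjusted p under 0.05, which is background to the members' values and not a result about them. In MCAO_KD the mean was 15.3 ± 24.4 CPM (SD, n = 19), 657 times a floor of 3 counts over the summed library totals of Intact_KD. That floor was taken without TMM factors, so the ratio is approximate and not a lower bound. These means rest on few libraries. Without MCAO_AL library 67, at 102 CPM, the mean of its group was 8.09 ± 10.5 CPM (SD, n = 10).

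Mmp3, stromelysin-1, lies close to Mmp12 on chromosome 8 in the RefSeq annotation, with Mmp1b as the coding gene between them, and had a different pattern. Its counts per library ran from 0 to 9 in intact brain and from 0 to 25 in lesions. The means were 0.235 ± 0.189 CPM (SD, n = 8) in Intact_AL, 0.283 ± 0.201 (SD, n = 8) in Intact_KD, 0.250 ± 0.117 (SD, n = 11) in MCAO_AL and 0.274 ± 0.230 (SD, n = 19) in MCAO_KD. Group ranges overlapped throughout, and the highest library, MCAO_KD library 9 at 1.08 CPM with 25 counts, was the only one over 1 CPM. Mmp3 did not pass the filter on low counts in any comparison. Fitted without that filter, its log2 fold change with MCAO was 0.13 on the standard diet (95% interval -0.88 to 1.15) and -0.05 on the ketogenic diet (-0.999 to 0.89).

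The promoters of these neighbours are shown because the genes lie near each other, with Mmp1b between them, and 24 of 30 lesions lay above all intact libraries for Mmp12 against 2 of 30 for Mmp3. RefSeq sequences of the 250 bases before the gene start (assembly GRCr8, plus strand) matched 3 of the 6 genes and are printed for Mmp12 at chr8:12866402-12866651 and Mmp3 at chr8:12925031-12925280. Capitals mark matches to an AP-1 motif (TGANTCA, the same on both strands) and to a TATA box (TATAAA, searched on both strands).
Mmp12: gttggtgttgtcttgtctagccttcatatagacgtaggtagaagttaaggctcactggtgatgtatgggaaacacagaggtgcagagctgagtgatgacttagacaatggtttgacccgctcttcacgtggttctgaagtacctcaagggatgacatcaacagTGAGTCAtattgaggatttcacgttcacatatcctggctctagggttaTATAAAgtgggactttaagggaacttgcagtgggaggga
Mmp3: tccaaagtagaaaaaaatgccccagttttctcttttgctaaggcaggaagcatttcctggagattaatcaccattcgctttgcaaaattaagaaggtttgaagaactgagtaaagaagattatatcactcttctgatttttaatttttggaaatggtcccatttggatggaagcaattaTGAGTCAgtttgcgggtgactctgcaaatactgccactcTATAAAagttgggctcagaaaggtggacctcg
Each window held 1 AP-1 match, starting 87 bases before the gene start in Mmp12 and 71 bases before it in Mmp3, and 1 TATA match, starting at 39 and 32 bases. The other motifs searched on both strands were the NF-kB motif, PEA3 (AGGAAG) and the GC box (GGGCGG); of these, 1 PEA3 match lay in the Mmp3 window, 206 bases before the start, and they occur in 0.314%, 29.5% and 30.5% of windows. Of 33469 promoter windows of this length, 6.34% held the AP-1 motif, 12.9% the TATA motif and 1.02% held both. The AP-1 and TATA letters were present in both printed promoters, and whether they relate to the levels of these genes was not tested. The other gene matched was Timp1, whose window, not printed, held matches to PEA3 and the GC box only. A match is a description of the sequence and not a mapped binding site.

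Mmp2, gelatinase A, cleaves denatured collagen and collagen IV of basement membranes, and was higher in every lesion than in any intact library. Intact_AL libraries ran from 3.62 to 6.92 CPM (median 5.80) and Intact_KD libraries from 4.64 to 6.35 CPM (median 5.42). MCAO_AL lesions ran from 26.2 to 229 CPM (median 71.4) and MCAO_KD lesions from 11.0 to 184 CPM (median 78.9). All 30 lesions lay above all 16 intact libraries, which was the case for 3.88% of the 16140 genes tested over all libraries. Its mean was 5.63 ± 1.03 CPM (SD, n = 8) in Intact_AL and 85.9 ± 59.4 CPM (SD, n = 11) in MCAO_AL, a ratio of 15.2. It was 5.48 ± 0.621 CPM (SD, n = 8) in Intact_KD and 83.7 ± 53.4 CPM (SD, n = 19) in MCAO_KD, a ratio of 15.3. The fitted log2 fold changes were 3.93 (SE 0.38) and 3.93 (SE 0.47) from libraries that the diets do not share.

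Mmp14, membrane type 1 metalloproteinase, is anchored at the cell surface, where it cuts fibrillar collagen and activates the Mmp2 proenzyme. Its level ran from 4.91 to 16.4 CPM in Intact_AL (median 6.77) and from 2.57 to 12.4 CPM in Intact_KD (median 7.27). In lesions it ran from 14.1 to 197 CPM in MCAO_AL (median 82.3) and from 12.4 to 347 CPM in MCAO_KD (median 87.8). Of the lesions, 10 of 11 on the standard diet and 19 of 19 on the ketogenic diet lay above all intact libraries of their diet, and 27 of 30 lay above all 16. Full separation upward was seen for 11.4% of genes tested on the standard diet and 7.05% on the ketogenic diet. Mmp14 had it on the ketogenic diet only, where MCAO_KD library 31 at 12.417 CPM lay just above Intact_KD library 53 at 12.355 CPM. The shares of all genes with 10 of 11 or 27 of 30 lesions above were not computed. The mean was 8.66 ± 4.56 CPM (SD, n = 8) in Intact_AL against 92.7 ± 58.8 CPM (SD, n = 11) in MCAO_AL. It was 7.31 ± 2.89 CPM (SD, n = 8) in Intact_KD against 124 ± 108 CPM (SD, n = 19) in MCAO_KD. The fitted log2 fold changes were 3.42 (SE 0.47) and 4.08 (SE 0.64).

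Mmp9, gelatinase B, shares substrates with Mmp2 and is known for its early rise after ischemia, yet at 14 days it was lower in lesions than in intact brain. Levels ran from 3.43 to 7.78 CPM in Intact_AL (median 5.04) and from 4.06 to 8.56 CPM in Intact_KD (median 5.64). They ran from 1.42 to 4.45 CPM in MCAO_AL (median 2.14) and from 0.636 to 6.72 CPM in MCAO_KD (median 2.64). Of 30 lesions, 23 lay below the lowest of the 16 intact libraries and 0 lay above the highest. The share of all genes with as many lesions below was not computed. The mean was 5.26 ± 1.45 CPM (SD, n = 8) in Intact_AL against 2.43 ± 0.932 CPM (SD, n = 11) in MCAO_AL. It was 5.82 ± 1.67 CPM (SD, n = 8) in Intact_KD against 2.91 ± 1.63 CPM (SD, n = 19) in MCAO_KD. The log2 fold changes were -1.11 (SE 0.21) and -0.99 (SE 0.29). Scaling by library totals only, which shifts the median gene by 0.34 and 0.25 on the log2 scale, left the direction in place, at -0.78 and -0.77.

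Timp1, the only inhibitor among the members, had 0 counts in 46 of 46 libraries, as did 7581 of the 30452 listed genes. Its spread over lesions therefore cannot be described. A count of 0 allows up to 0.00496 CPM over the 30 lesions, by library totals without TMM factors and for counting error only. In the RefSeq annotation, of another assembly than the counts, Timp1 lies wholly within the span of Syn1, a gene of synaptic vesicles in neurons. The 0 is what the table lists, and its relation to the amount of Timp1 RNA was not tested; the handling of reads from overlapping genes was not given in the sources used here.

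**Figure D1:**
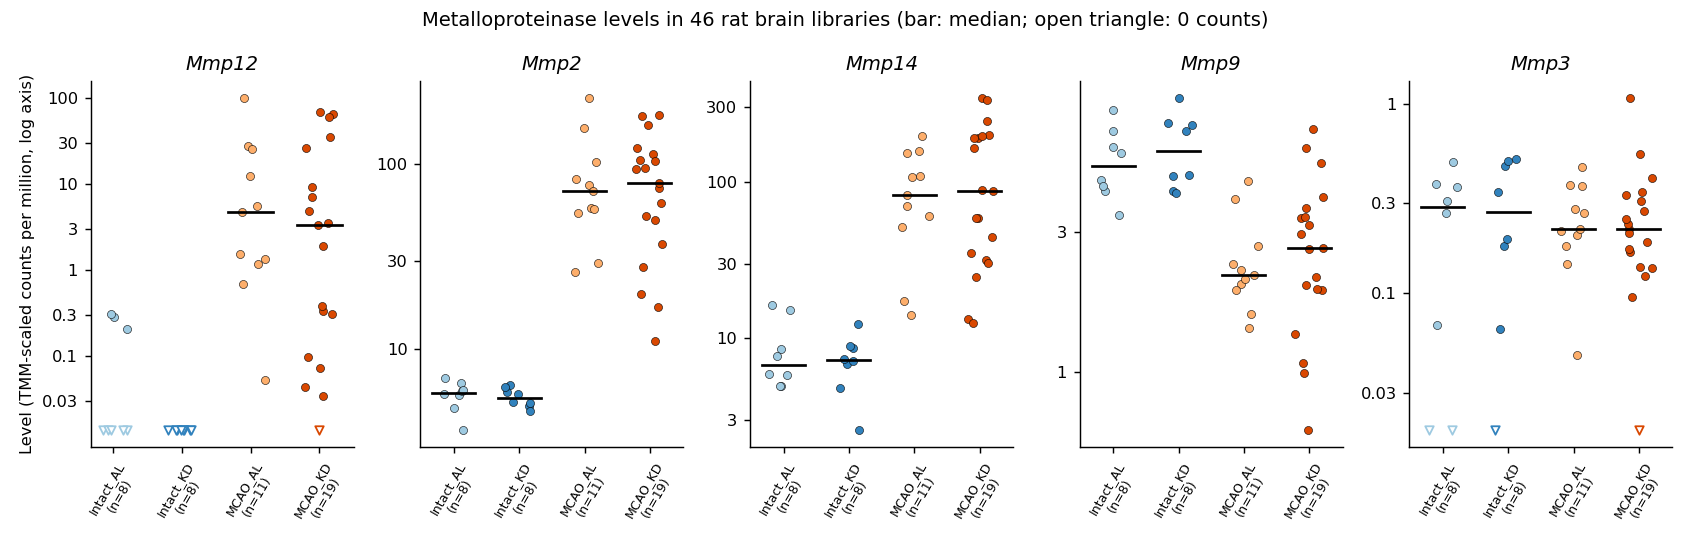
Level of each protease in every library, as TMM-scaled CPM on a log axis, by group, with points for libraries, bars for medians above 0 and open triangles for libraries at 0 counts. Mmp2 separates lesions from intact brain, Mmp14 nearly does, Mmp12 spans from 0 to 102 CPM within lesions, Mmp9 is lower in most lesions and Mmp3 overlaps between all groups.

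By mean CPM the groups fell into the order MCAO_AL, MCAO_KD, Intact_AL, Intact_KD for Mmp12 and Mmp2, and MCAO_KD, MCAO_AL, Intact_AL, Intact_KD for Mmp14. The order of the lesion groups for Mmp12 and Mmp2 rests on MCAO_AL library 67: without it the MCAO_AL means were 8.09 and 71.6 CPM, below those of MCAO_KD. For Mmp9 the order was Intact_KD, Intact_AL, MCAO_KD, MCAO_AL. In each of these orders the neighbours that differ only in diet lay within 1 SD of each other, as did all neighbours for Mmp3, whose order was Intact_KD, MCAO_KD, MCAO_AL, Intact_AL.

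The proteases differed in how unevenly they were spread over the 30 lesions. The coefficient of variation (SD over mean of CPM) was 1.65 for Mmp12, 0.824 for Mmp14, 0.732 for Mmp3, 0.647 for Mmp2 and 0.519 for Mmp9, against a median of 0.257 over the 15782 genes tested in lesions. Counting noise adds to the value of Mmp3. For Mmp12 only 13 of the 15782 genes, or 0.0824%, had a larger coefficient. For Mmp14 2.78% did, for Mmp2 6.30% and for Mmp9 12.2%. The 5 highest lesions held 70.7% of the summed Mmp12 CPM, where equal shares would give 16.7% and the median gene had 23.4%. The same share was 39.3% for Mmp14, 36.0% for Mmp2 and 31.7% for Mmp9. Of 30 lesions, 9 were over 10 CPM of Mmp12 and 10 were under 1 CPM. Within diets the coefficients of Mmp12 were 1.80 (n = 11) and 1.60 (n = 19), so the unevenness was present on each diet. Over the 16 intact libraries the coefficient was 2.19 for Mmp12, 0.148 for Mmp2, 0.277 for Mmp9, 0.470 for Mmp14 and 0.735 for Mmp3. It was thus larger among lesions for Mmp2, Mmp9 and Mmp14, about equal for Mmp3, and larger among intact libraries for Mmp12, which had 12 counts there in all.

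**Figure D2:**
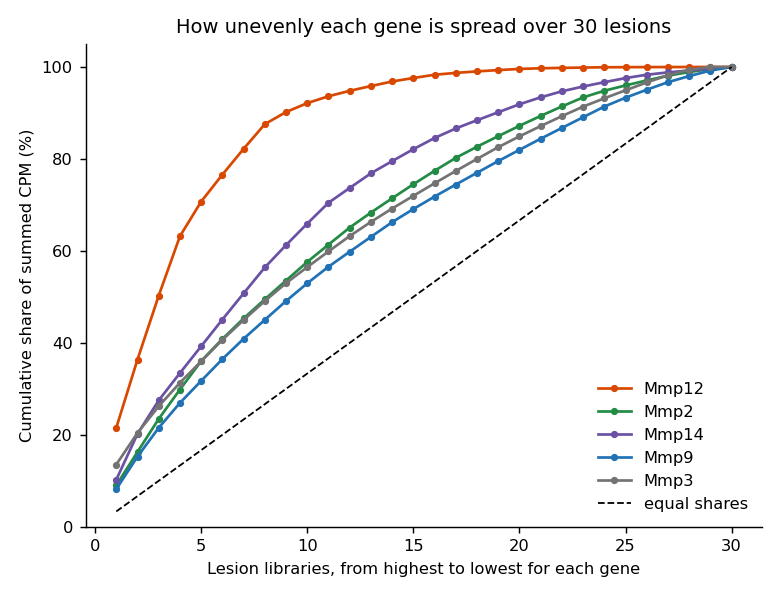
Cumulative share of the summed CPM of each protease over the 30 lesion libraries, ranked from the highest for each gene, with a dashed line for equal shares. The first 5 libraries hold 70.7% for Mmp12 and 31.7% to 39.3% for the other proteases.

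The highest lesions were partly shared. MCAO_AL library 67 had the highest level of its group for Mmp12 (102 CPM), Mmp2 (229 CPM) and Mmp14 (197 CPM). MCAO_KD library 33 was highest in its group for Mmp12, at 70.4 CPM, with 182 CPM of Mmp2 and 192 CPM of Mmp14. Other lesions were high for 1 protease and not for another. MCAO_KD library 5 had 337 CPM of Mmp14, next to the highest of all lesions, with 9.25 CPM of Mmp12, and it had the lowest Mmp9 of all libraries at 0.636 CPM. MCAO_KD library 37 had 184 CPM of Mmp2, the highest of its group, with 3.37 CPM of Mmp12. At the low end, MCAO_KD libraries 27 and 31 and MCAO_AL library 71 had 1 count of Mmp12 each, and MCAO_KD library 9 had 0. These libraries also held the highest Mmp9 levels among lesions, at 6.72, 5.79, 4.45 and 5.13 CPM.

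Across lesions the levels of Mmp12, Mmp2 and Mmp14 were positively correlated, with the exceptions named above, and each was inversely correlated with Mmp9. Over the 30 lesions, log2 CPM (prior count 2) of Mmp12 and Mmp14 correlated with r = 0.874 (Pearson) and rho = 0.899 (Spearman). Mmp2 and Mmp14 had r = 0.850 and rho = 0.861, and Mmp12 and Mmp2 had r = 0.783 and rho = 0.799. The permutation p was 1e-05 for each of these 6 coefficients, the lower limit with 100000 resamples. Adjusted p over 10 pairs was 2.5e-05 for r and 3.33e-05 for rho. These p-values, and those of the other pairs below, are set against no relation at all. The levels of the members and their spread over these lesions were known at the choice. The coefficients are therefore descriptions, and their permutation p are not read as a result. Mmp12, Mmp2, Mmp14 and Mmp9 also followed the whole lesion profile, as described below. The share of all gene pairs with such an r was not computed, so no link specific to these proteases is read. Without the 2 lesions farthest from the median of the first gene, r was 0.889, 0.800 and 0.735, in the same order. Within MCAO_AL these r were 0.885, 0.830 and 0.719, and within MCAO_KD 0.892, 0.865 and 0.806.

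Mmp9 was inversely related to all 3 of these genes. Its r was -0.720 with Mmp2 (rho -0.683, permutation p = 1e-05 and 7e-05, adjusted p = 2.5e-05 and 0.000175). With Mmp14 r was -0.696 (rho -0.638, permutation p = 2e-05 and 0.00018, adjusted p = 4e-05 and 0.00036), and with Mmp12 r was -0.542 (rho -0.544, permutation p = 0.00207 and 0.00227, adjusted p = 0.00345 and 0.00378). Without the 2 farthest lesions r was -0.609 with Mmp2, -0.611 with Mmp14 and -0.517 with Mmp12. Within MCAO_AL r was -0.605, -0.616 and -0.486, and within MCAO_KD -0.754, -0.734 and -0.559, in that order. Mmp3 and Mmp12 had r = -0.465 (rho -0.431, permutation p = 0.00826 and 0.0186, adjusted p = 0.0118 and 0.0266), but only -0.194 within MCAO_AL, and at 0 to 25 counts this relation is not read further. The adjusted permutation p of Mmp3 with Mmp2 was 0.0523 for r and 0.0491 for rho, and for r it was 0.0948 with Mmp14 and 0.211 with Mmp9. All libraries are scaled to a common total, which links the levels of genes.

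Each lesion was placed by its whole profile, since lesions differ in how far they lie from intact brain. To get this position, the log2 CPM profile was projected onto the line from the average intact to the average lesion profile, with the members left out. It is 0 at the mean of intact brain and 1 at the mean of lesions, and ran from 0.29 to 1.40 over the 30 lesions. Along it Mmp14 had r = 0.917 (rho 0.911), Mmp2 r = 0.910 (rho 0.853), Mmp12 r = 0.821 (rho 0.828) and Mmp9 r = -0.745 (rho -0.677). Permutation p was 1e-05 for these r and 6e-05 or less for these rho, with adjusted p over 5 genes of 1.25e-05 for r and 7.5e-05 or less for rho. For Mmp3 r was -0.390 (rho -0.344, permutation p = 0.0333 and 0.0624, adjusted p = 0.0333 and 0.0624). Without the 2 farthest lesions r was 0.892, 0.867, 0.795, -0.647 and -0.453, in the order Mmp14, Mmp2, Mmp12, Mmp9 and Mmp3. Within MCAO_AL r was 0.909, 0.828, 0.764, -0.680 and -0.189, and within MCAO_KD 0.921, 0.942, 0.856, -0.770 and -0.448. The position is made from genes of the same libraries, so these values describe the lesions and are not independent evidence. It follows the difference between lesion and intact brain, whose direction for the members was known at the choice. A test against no relation therefore cannot decide whether the members stand out, and these permutation p are not read as a result. The share of all genes with such an r was not computed.

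The slope along the position was steepest for Mmp12, at 8.17 log2 CPM per unit, against 4.14 for Mmp14, 3.13 for Mmp2 and -1.72 for Mmp9. Lesions at a like position still differed in Mmp12. MCAO_AL library 82, at a position of 0.93, had 25.5 CPM of Mmp12, while MCAO_KD library 43, at 1.02, had 0.383 CPM and MCAO_KD library 23, at 1.07, had 0.330 CPM. On the same diet as library 82, MCAO_AL library 65, at 0.94, had 0.695 CPM of Mmp12. In libraries 82, 43, 23 and 65, Mmp2 was 103, 52.4, 74.3 and 54.5 CPM, so it differed less. Mmp14 was 158, 30.3, 58.8 and 51.1 CPM, so it differed more than Mmp2 and less than Mmp12.

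**Figure D3:**
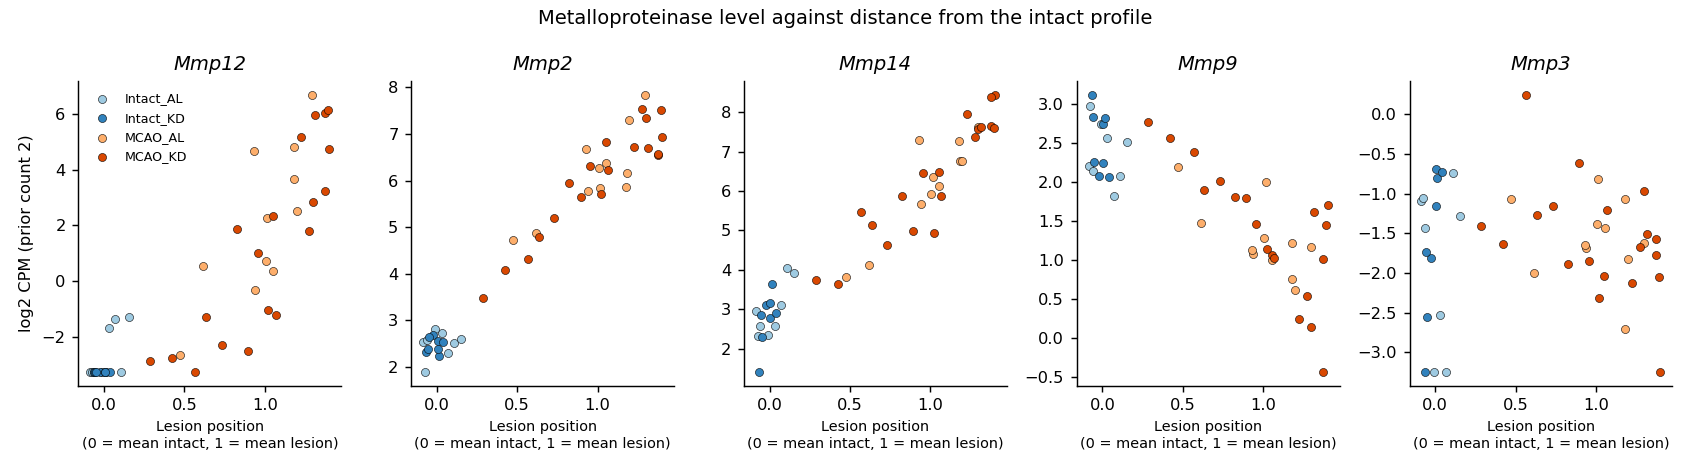
log2 CPM (prior count 2) of each protease against library position, where 0 is the average intact and 1 the average lesion profile, with colours for the 4 groups. Mmp2 and Mmp14 rise, with Mmp14 more scattered near a position of 1. Mmp12 rises more steeply with wider scatter there, Mmp9 falls and Mmp3 is scattered.

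By pattern over lesions, the gene most like Mmp12 among 14680 with a mean of at least 1 CPM was ENSRNOG00000010507, with r = 0.982 over the 30 lesions. It had 3.89 ± 5.39 CPM (SD, n = 11) in MCAO_AL and 5.77 ± 9.01 CPM (SD, n = 19) in MCAO_KD, and at most 0.0153 CPM on average in either intact group. The table gives no name for it. Of the compared genes, 101 had an r of at least 0.9 in size with Mmp12, 144 with Mmp2, 640 with Mmp14 and 0 with Mmp9.

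On the ketogenic diet the fitted lesion levels of Mmp2 and Mmp9 differed from those on the standard diet by less than 2-fold, intervals included, and the values for Mmp12 and Mmp14 were less precise. The levels known when the members were chosen covered both diets, so the fitted differences are given with their intervals as descriptions. The calls listed here, in intact brain and for the interaction are likewise not read as a result. The log2 fold change of MCAO_KD over MCAO_AL was -0.10 for Mmp12 (95% interval -2.10 to 1.89) and -0.03 for Mmp2 (-0.78 to 0.72). It was 0.43 for Mmp14 (-0.55 to 1.42) and 0.28 for Mmp9 (-0.28 to 0.84). A 2-fold diet difference, which is 1 on the log2 scale, lies inside the intervals of Mmp12 and Mmp14 and outside those of Mmp2 and Mmp9. Of the 4 members that passed the filter on low counts, the edgeR quasi-likelihood test called 0 (adjusted p under 0.05). It called 0.741% of the 15782 genes tested. An unadjusted p under 0.05 was found for 0 of these 4 members and for 2122 of the 15782 genes. Limma voom with quality weights called 0 of 4, and DESeq2 called 0 of the 3 to which it gave an adjusted p, Mmp9 having none. Of the 15782 genes fitted, limma voom called 945 and DESeq2 506. With voom the log2 fold change was -1.32 for Mmp12 and -0.10 for Mmp14, so the direction for Mmp14 turned. Over all alternatives Mmp2 ran from -0.21 to 0.23 and Mmp9 from 0.06 to 0.40. The Mmp12 value moved with single libraries, to 0.93 without MCAO_AL library 67 and to -0.42 without MCAO_KD library 33. With lesion position as a covariate it was -1.32 (95% interval -2.56 to -0.07, p = 0.0391, adjusted p = 0.160 with edgeR), which did not pass. That fit gave 4271 of the 15782 genes an unadjusted p under 0.05 and called 1713, where the main fit gave 2122 and called 117.

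In intact brain the log2 fold change of Intact_KD over Intact_AL was -0.05 for Mmp2 (95% interval -0.33 to 0.23), 0.14 for Mmp9 (-0.25 to 0.53) and -0.25 for Mmp14 (-0.87 to 0.37). Each of these intervals lies within 2-fold. Of these 3 members, which passed the filter, 0 were called with edgeR, where 0% of 14746 genes were called. An unadjusted p under 0.05 was found for 0 of the 3 and for 2182 of the 14746 genes. DESeq2 and limma voom also called 0 of 3, and of the 14746 genes they called 259 and 0. Mmp12 did not pass the filter here, with 12 counts in all in Intact_AL, in libraries 83, 84 and 90, and 0 in Intact_KD. Its 0 counts in Intact_KD were known when it was chosen. Without a filter it was the 1 member of 5 with an unadjusted p under 0.05 (log2 fold change -3.70, 95% interval -6.12 to -1.28, p = 0.00489, adjusted p = 0.225 with edgeR), which is no independent test of that value. Of the 21377 genes fitted without a filter, 2683 had an unadjusted p under 0.05.

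The interaction is the difference in log2 fold change with MCAO between the ketogenic and the standard diet. It was 0.00 for Mmp2 (95% interval -1.07 to 1.08), 0.12 for Mmp9 (-0.67 to 0.91) and 0.66 for Mmp14 (-0.78 to 2.10). For Mmp12 the interval ran from -6.41 to 14.5, since the intact groups hold 12 and 0 counts, and it sets no useful limit. Of these 4 members 0 were called with edgeR, where 0% of 16140 genes were called. An unadjusted p under 0.05 was found for 0 of the 4 and for 719 of the 16140 genes. DESeq2 and limma voom also called 0 of 4, and of the 16140 genes they called 2 and 13.

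**Figure D4:**
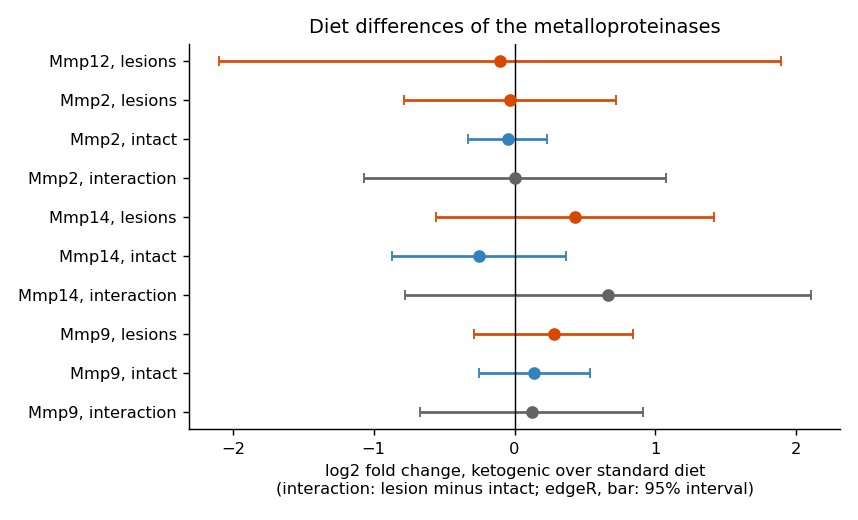
log2 fold change of the ketogenic over the standard diet with its 95% interval from edgeR, in lesions, in intact brain and as the interaction, for the members that passed the filter; the interaction of Mmp12, whose interval runs from -6.41 to 14.5, is left out. Every interval shown includes 0, and that of Mmp12 in lesions is the widest.

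Whether the diets differ in spread within lesions depended on the measure, and is given without a test since the members were chosen on their spread. The mean absolute deviation of log2 CPM from the group median was 2.86 in MCAO_KD and 2.15 in MCAO_AL for Mmp12, 0.910 and 0.672 for Mmp2, and 1.30 and 0.912 for Mmp14. It was 0.651 and 0.327 for Mmp9 and 0.499 and 0.373 for Mmp3, so on this scale it was larger in MCAO_KD for 5 of 5 genes. By the coefficient of variation of CPM the order turned for Mmp12, at 1.60 in MCAO_KD and 1.80 in MCAO_AL, and for Mmp2, at 0.637 and 0.692. Over all genes tested the median coefficient was 0.273 in MCAO_KD and 0.206 in MCAO_AL. The coefficients of Mmp3, Mmp9 and Mmp14 had this order, and those of Mmp12 and Mmp2 the opposite one. The log2 deviation was not computed over all genes.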

How the data were processed

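Per the labels' protocols, RNA was selected for polyA tails and sequenced from strand-specific libraries. HISAT2 2.0.5, HTSeq 0.7.2 and genome build mRatBN7.2 appear in the submitters' processing notes. Neither the strand option of the counting nor the release of the gene models is given in the sources used here. The authors deposited raw counts per gene, and the 39 columns of the series table that belong to no described sample were not used. The members and gene lists were chosen with earlier results of these data known, by role; the 124 genes of 16 pathway and marker lists could not be matched to IDs and were not tested, and the rule for naming similar genes was narrowed to the nearest ID of Mmp12. With Timp1 at 0, correlations were adjusted over 10 pairs or 5 genes instead of the planned 15 and 6. Fits used R 4.3.3 and edgeR 4.0.16 (TMM, filterByExpr, robust quasi-likelihood F test, Benjamini-Hochberg over all genes tested). Intervals use the fitted SE. Alternatives were DESeq2 1.42.0, limma 3.58.1 voom, other scalings, filters, covariates and leaving out libraries. The planned tests of diet and of spread between diets are given as descriptions, since the levels and spread known at the choice covered them. Permutation tests of correlations are two-sided with 100000 resamples. The fits were tested on simulated data. No 2 libraries of a group were alike within sampling noise (smallest chi-square per degree of freedom 12.2).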

Additional observations from a re-analysis of the deposited data

How the results depend on the processing

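No member was called for diet or for the interaction under any alternative that gave it an adjusted p. Mmp9 had none in lesions with DESeq2. These calls are listed and not read as a result, since the levels known at the choice covered both diets. The direction of the uncalled diet differences of Mmp12, Mmp14 and Mmp2 turned under some alternatives. The count of all genes called for diet in lesions, 117, was 184 with library totals only, 506 with DESeq2, 945 with limma voom, 21 without a filter, 77 with 1 fit over all 46 libraries and 1713 with lesion position as a covariate, and ran from 6 (without MCAO_AL library 70) to 242 (without MCAO_KD library 37) with single libraries left out. The count for diet in intact brain, 0, was 259 with DESeq2 and 62 with 1 fit over all libraries, and ran from 0 to 170 (without Intact_KD library 59). The interaction count, 0, was 2 with DESeq2 and 13 with limma voom. The Mmp12 log2 fold change with MCAO on the ketogenic diet was 11.25 with edgeR and 5.48 with limma voom. Mmp12 had 0 counts in 8 of 8 Intact_KD libraries, so neither value measures the size of the change. The cause of the shifts between alternatives was not tested. The alternative that leaves out Intact_AL library 83 on the standard diet was chosen after seeing the data. No paired analysis was possible because the groups share no replicate numbers. Depth limits Mmp3, at 0 to 25 counts, and Mmp12 in intact brain, at 0 to 5.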

Other observations

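The count ratio of Mmp14 to Mmp2 within a library, which needs no scaling and was chosen after their values were seen, had a median of 1.35 in Intact_AL (0.718 to 2.93, n = 8), 1.33 in Intact_KD (0.524 to 2.66, n = 8), 0.861 in MCAO_AL (0.539 to 2.64, n = 11) and 1.11 in MCAO_KD (0.579 to 3.52, n = 19). On the log2 scale the ketogenic minus standard difference of the group means was 0.28 in lesions and -0.19 in intact brain. The highest ratio was in MCAO_KD library 5.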
